A study of Mus musculus with 9 samples.

Results

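The genes described here are MYC, the other members of its dimerization network and a set of factors that build ribosomes in the nucleolus, read in RNA from pancreatic islets of male mice. Rows of the deposited table were chosen by gene symbol from a list of 46, and 45 of them were found among 23329 genes. The symbol Mycl had no row, and its older symbol Mycl1 had between 1 and 6 counts per library. The 4 control libraries carry the genotype Pdx1+/-, so that the controls also bear a changed Pdx1 allele, and the 5 mutant libraries carry the genotype Pdx1A4, which the labels do not explain. Pdx1 encodes a homeodomain transcription factor of the pancreas and beta cell. No treatment or age is given for either group in the sources used here, islet medium is given as RPMI with serum, and nothing states that a group's libraries were made from different animals, so that each p-value reflects only the scatter among these libraries, which may be technical.

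MYC is a basic helix-loop-helix leucine zipper protein that binds DNA as a dimer with MAX, at sites that contain the E-box letters CACGTG. MXD1, MXI1 and MNT also pair with MAX, bind the same letters and repress transcription. Ribosome biogenesis is a well known output of MYC: RNA polymerase I copies ribosomal DNA in the nucleolus, small nucleolar RNA particles modify the transcript, and processing factors fold and cut it into the small and large subunits. The islet is made mostly of beta cells, which secrete insulin at high rates, and the acinar cells around it are among the strongest protein producers of the body.

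The E-box letters are shown first, since they are the site that MYC and its partners share. Promoter windows from RefSeq (GRCm38.p6), each running from 250 bases before to 50 bases after a start site, were found for 39 of the 45 genes. CACGTG, which reads the same on both strands, occurred in a window of 8 of them (20.5%). It occurred for 8.09% of all 27025 genes with a window, for 11.9% of the 8894 such genes that were tested for expression, and for 19 of 99 other ribosome biogenesis genes (19.2%). In the 250 bases before the start site alone the order was different, with 2 of the 39 genes (5.13%) against 6.86% of all genes with a window, 10.0% of those tested and 13.1% of the other ribosome biogenesis genes, so that the higher share in the full window rests on the 50 bases after the start. Each site is printed in 30 bases on the gene's strand, with the E-box in capitals. The sites are chr6:125131811-125131840 (Nop2), chr10:13193092-13193121 (Ltv1), chr11:3963965-3963994 (Pes1), chr17:71616220-71616249 (Wdr43), chr10:88826765-88826794 (Utp20), chr11:74898092-74898121 (Tsr1), chr11:74830789-74830818 (Mnt) and chr12:76962234-76962263 (Max), with Ltv1, Utp20 and Max on the minus strand.
Nop2: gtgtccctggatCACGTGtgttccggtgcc
Ltv1: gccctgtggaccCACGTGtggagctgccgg
Pes1: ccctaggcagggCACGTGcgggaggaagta
Wdr43: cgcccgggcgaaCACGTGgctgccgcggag
Utp20: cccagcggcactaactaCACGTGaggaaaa
Tsr1: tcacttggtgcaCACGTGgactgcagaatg
Mnt: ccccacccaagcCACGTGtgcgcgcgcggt
Max: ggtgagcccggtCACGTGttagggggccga

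The first base of the E-box lay 60 bases upstream of the start site in Nop2 and 123 bases upstream in Mnt. It lay 3 bases upstream in Max, so that the letters spanned the start, and 2, 17, 24, 28 and 37 bases downstream in Pes1, Wdr43, Tsr1, Ltv1 and Utp20. These positions depend on the RefSeq start site. For Nop2, Max and Utp20 the bases shortly after that start were not found in a GENCODE M21 transcript of the gene. The first 4 genes printed were higher in mutants and the other 4 were not called, as described below. Among genes called higher with a window, 4 of 22 held the letters (18.2%), against 4 of 17 of the remaining genes (23.5%). The 250 bases before the start site of Nop2 (chr6:125131633-125131882, plus strand), the gene with the E-box upstream among those that rose, read as follows.
Nop2 promoter: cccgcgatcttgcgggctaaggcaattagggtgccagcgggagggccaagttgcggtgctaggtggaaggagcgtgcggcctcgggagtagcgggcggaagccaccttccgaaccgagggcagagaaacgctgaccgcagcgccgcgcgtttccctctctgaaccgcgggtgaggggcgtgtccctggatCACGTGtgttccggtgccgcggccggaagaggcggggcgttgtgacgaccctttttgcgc

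Libraries held 6092010 to 9163253 counts. Pdx1 was lower in mutants (12.9 ± 6.91 CPM, SD, n = 5) than in controls (29.5 ± 5.54, SD, n = 4; edgeR adjusted p = 0.0461), where CPM is the usual count scaled to the effective library size. The summed level of 8 beta cell markers was 107772 to 179334 CPM in controls and 682 to 61788 in mutants, with the lowest values in mutants 2 and 3, and none of the 8 passed the test. Sums of alpha cell markers were 8575 to 24192 CPM in controls and 91.4 to 8382 in mutants. Those of delta cells were 1126 to 1411 and 13.1 to 558, and the gamma cell marker Ppy was at 7229 to 9978 and 59.6 to 5344. The summed level of 12 acinar markers, of which 11 rose and none was at 0, was 16103 to 38912 CPM in controls and 83341 to 189784 in mutants. The sum of 8 ductal markers, 3 of them higher and 1 lower, was 4232 to 12196 CPM in controls and 15983 to 27460 in mutants. In bulk RNA, fewer cells of a type and less RNA per cell cannot be told apart. Of 6 proliferation genes 3 rose. The sum of the 6 was 228 and 202 CPM in mutants 2 and 3, against 79.1 to 87.0 in the other mutants and 63.8 to 91.9 in controls. Pcna, which was not called, gave 54.1 to 74.2 CPM of that sum in controls and 53.7 to 66.6 in mutants. Cdk1 and Birc5 were higher in every mutant than in any control, with Cdk1 at 6.14 to 26.6 CPM against 1.78 to 5.39. Mki67, Top2a, Ccnb1 and Pcna overlapped between groups. Control 2 differed most from the other controls, with a chi-square of counts per degree of freedom of 57.6 to 87.7, against 18.3 to 22.3 among the other 3. How far these differences between libraries contribute to the results below was not tested.

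Of the 45 genes, 44 passed the filter on low counts, and 28 were higher and 2 lower in mutants at an adjusted p under 0.05 in edgeR's quasi-likelihood test. The background over all 12402 genes tested was 20.6% higher and 11.8% lower, or 2156 genes higher and 2006 lower when relative log expression (RLE) scaling replaced the trimmed mean of M-values (TMM), against 2560 and 1462. The median log2 fold change of the 44 genes was 0.66, and that of all genes 0.04. For 21 of the 44 all mutants lay above all controls, and for 2 below, where the background was 18.5% and 14.7% of genes. Outside the MYC network 27 of 39 genes rose and 0 fell, with 0 lower also at an unadjusted p under 0.05, and 26 and 29 higher with 0 lower in DESeq2 and limma-voom. RLE scaling moved the median of all genes by -0.10, the median of the 44 to 0.56 and the count to 22 higher and 2 lower.

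The number of genes higher was 17 without control 1, 15 without mutant 3 and 10 without mutants 2 and 3 together, and all 11 genes called without those libraries, in either direction, were among the 30 called with them. Over all genes, the number higher was 1678 of 12634 without control 1, 1579 of 12282 without mutant 3 and 1355 of 12571 without mutants 2 and 3. The median log2 fold change of the 44 genes without mutants 2 and 3 was 0.47, and that of all genes -0.04. The 10 higher there were Myc, Polr1e, Nop56, Nhp2, Npm1, Ddx21, Ltv1, Bysl, Noc4l and Wdr74, and the others called higher in all libraries lost their call. Of the 30 genes called, 14 passed in each of the 9 fits that left out 1 library, all of them higher, and all 30 kept their sign there. Without control 2 and mutant 4, an alternative chosen after seeing the data, 28 genes were higher and 1 lower (1865 and 1101 of all 12617 genes). Nop58, Gnl3 and Wdr12 passed there and not in all libraries, while Mxi1, Rrp12, Bop1 and Noc2l did not pass. With the mean level of 15 endocrine exocytosis genes as a covariate, edgeR called 4 genes higher, Nhp2, Polr1e, Ddx21 and Ltv1, and 0 lower, with 16 higher and 2 lower at an unadjusted p under 0.05. Over all 12402 genes that fit called 445 higher and 54 lower, with 2718 at an unadjusted p under 0.05. The group explained 50.4% of the variance of that endocrine level. With the acinar marker level as a covariate edgeR called 0 of the 44 in either direction, and 0 at an unadjusted p under 0.05. That fit also called 0 of all 12402 genes, with 374 at an unadjusted p under 0.05, so that the 0 is not particular to these genes. Of the 30 genes called without this covariate 8 changed sign, Myc and Npm1 among them. The group explained 95.0% of the variance of that acinar level, so that acinar content and genotype cannot be told apart in this fit.

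**Figure D1:**
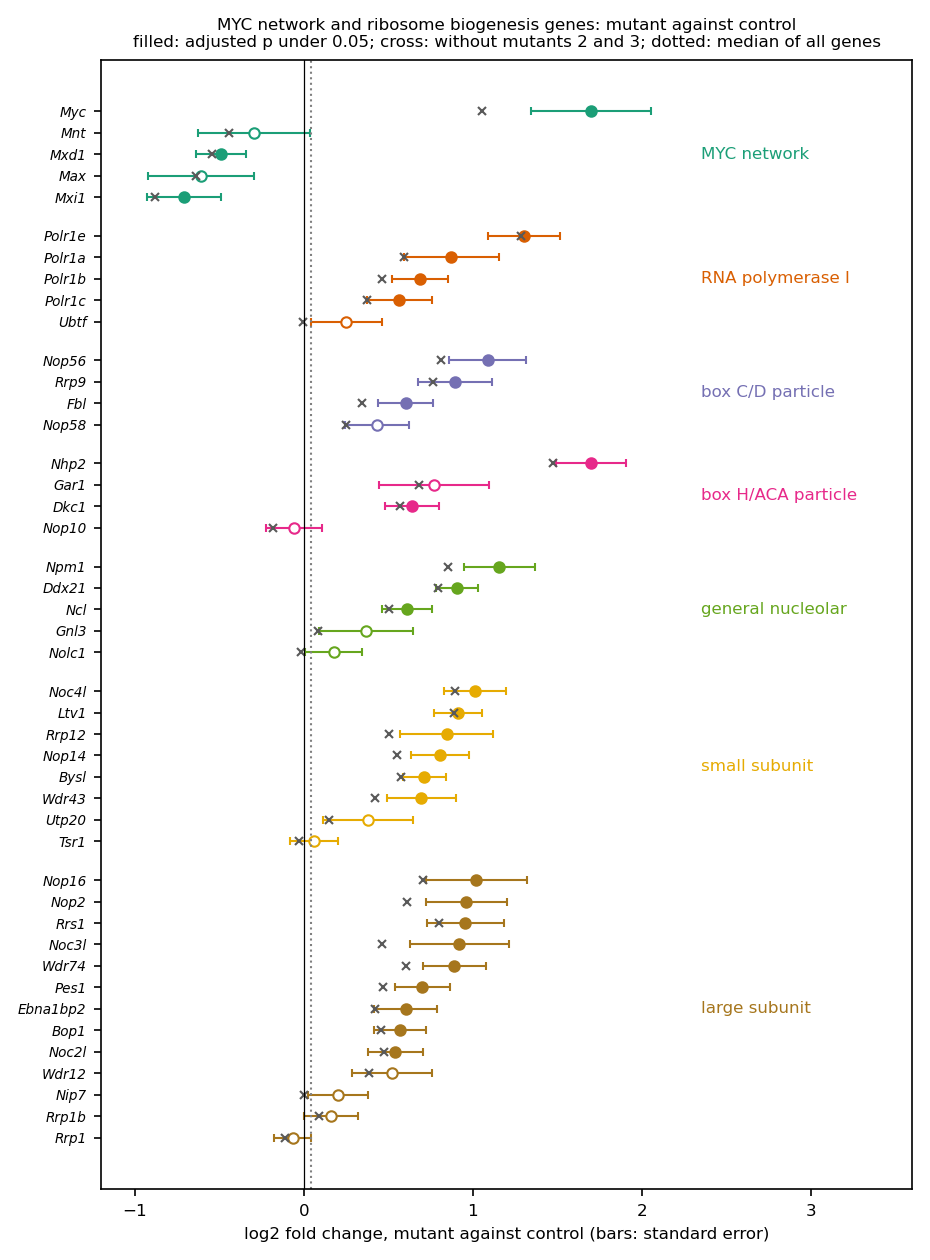
Log2 fold change of mutant against control (x axis) for the 44 genes tested (y axis), grouped by role, with bars for the standard error from edgeR. Filled points passed an adjusted p of 0.05, crosses are values without mutants 2 and 3, and the dotted line is the median of all genes (0.04). Myc and Nhp2 lie farthest to the right, both at 1.70, and the 4 other MYC network genes lie left of 0.

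In the MYC network Myc rose, and its antagonists Mxd1 and Mxi1 fell. Myc (chromosome 15, positions 61985391 to 61990374 of GRCm38) was at 35.4, 60.6, 54.2 and 60.1 CPM in controls 1 to 4 and at 91.5, 272, 244, 106 and 143 CPM in mutants 1 to 5. The groups did not overlap, and mutants 2 and 3, which had the lowest beta cell and highest proliferation marker levels, stood well above the other mutants. The mean of 52.6 ± 11.8 CPM (SD, n = 4) rose to 171 ± 82.0 CPM (SD, n = 5), a log2 fold change of 1.70 (standard error, SE, 0.36, edgeR adjusted p = 0.00796). Without mutants 2 and 3 the log2 fold change of Myc was 1.05 (edgeR adjusted p = 0.0149), and with the endocrine level as a covariate it was 0.75 and did not pass (edgeR adjusted p = 0.199). With the acinar level as a covariate, which the group nearly determines, the sign of Myc turned, to -0.54 (edgeR adjusted p = 0.998). Mycn, the neural relative of Myc, had 4 to 19 counts in controls and 0 to 8 in mutants and was not tested.

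Mxd1, a MAX partner that represses E-box genes and rises in many cells as they differentiate, was at 29.7, 25.6, 38.6 and 37.9 CPM in controls 1 to 4 and at 23.9, 22.9, 23.7, 23.7 and 23.3 in mutants 1 to 5. All mutant libraries lay below all controls and close to each other. Its log2 fold change was -0.49 (SE 0.15, edgeR adjusted p = 0.0302), and the call ended without control 3 or 4 or mutant 3 or 5 (highest edgeR adjusted p = 0.0808) or without mutants 2 and 3 (0.0825). Mxi1, a second repressor of this kind, was at 19.7, 32.6, 17.3 and 17.9 CPM in controls and at 11.4, 14.3, 15.8, 13.3 and 12.0 in mutants. Its groups were apart as well, with control 2 far above the others. The log2 fold change of Mxi1 was -0.71 (SE 0.22, edgeR adjusted p = 0.0325). The call ended without control 1 or mutant 1 or 5 (highest edgeR adjusted p = 0.0653) and without control 2 and mutant 4 (0.0557), and held without mutants 2 and 3 (-0.88, edgeR adjusted p = 0.0349). With the endocrine level as a covariate Mxd1 was at -0.49 and Mxi1 at -0.86, and neither passed (edgeR adjusted p = 0.223 and 0.152).

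Max, the shared partner, was at 8.75, 5.85, 7.38 and 7.49 CPM in controls and at 5.81, 3.50, 5.92, 2.34 and 6.56 in mutants, with groups that overlapped and a log2 fold change of -0.61 that did not pass (edgeR adjusted p = 0.156). Mnt, a repressor present in most cells, ranged from 2.32 to 4.68 CPM in controls and from 1.61 to 3.34 in mutants (edgeR adjusted p = 0.507). Per kilobase of exon in GENCODE M21, which need not be the annotation used for counting, the mean level of Myc was 19.4 CPM in controls and 63.0 in mutants. On that scale Max was at 2.05 and 1.34, Mxd1 at 4.66 and 3.32, Mxi1 at 3.21 and 1.96 and Mnt at 0.681 and 0.554 CPM. In both groups the order of these mean levels per kilobase was Myc, Mxd1, Mxi1, Max and Mnt.

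**Figure D2:**
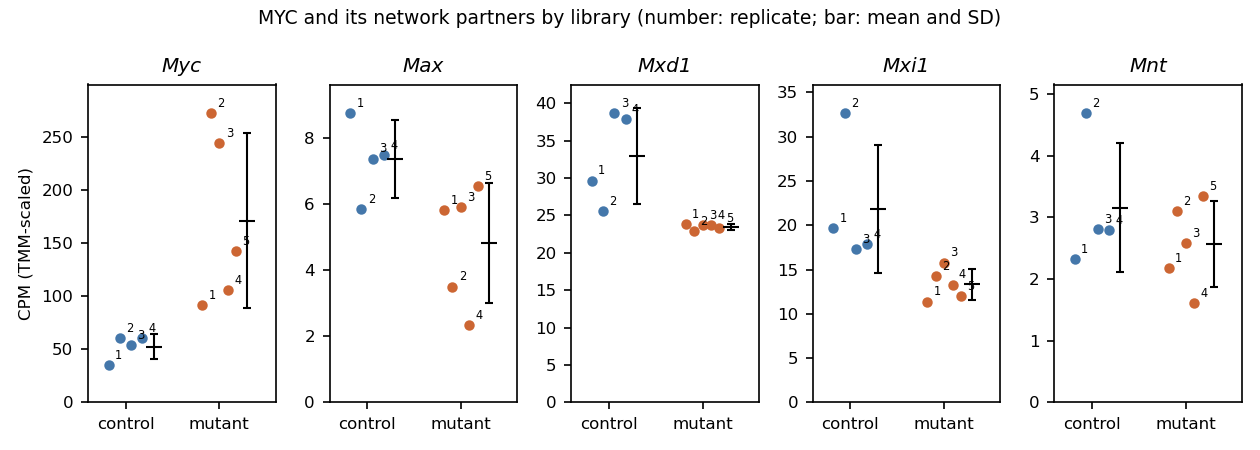
CPM of Myc, Max, Mxd1, Mxi1 and Mnt (y axis, from 0, a separate scale for each gene) in 4 control and 5 mutant libraries (points, numbered by replicate), with mean and SD beside them. Myc is above all controls in the 5 mutants, Mxd1 and Mxi1 are below all controls, and Max and Mnt overlap.

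The ratio of 2 genes within a library does not depend on how libraries are scaled. Ratios of 14 partner pairs were compared by exact two-sided permutation over the libraries, with adjustment over the 14, and 9 passed. The log2 ratio of Max to Myc counts was -2.81 ± 0.571 (SD, n = 4 controls) and -5.09 ± 0.901 (SD, n = 5 mutants; adjusted exact p = 0.0317). For Mxd1 to Myc it was -0.66 ± 0.420 and -2.73 ± 0.720, and the mutant libraries all lay below the controls (adjusted exact p = 0.0278). The Mxi1 to Myc and Mnt to Myc ratios were lower in mutants too (mutant minus control -2.26 and -1.88, adjusted exact p = 0.0278 for each). These 4 ratios share Myc and are not independent. The smallest p that these libraries allow is 0.00794. With 8 libraries it is 0.0179 or 0.0286, and the number of ratios passing ran from 0 (without control 4, mutant 2, mutant 3 or mutant 5) to 9, while the 9 kept their direction in each of these sets. Without mutants 2 and 3 none passed, and the 4 ratios to Myc had differences between -1.52 (Mnt) and -1.90 (Mxi1).

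Within complexes, some partners changed unequally and others were not told apart. The core box C/D pair Nop58 to Nop56 had a log2 ratio of -0.26 ± 0.360 (SD, n = 4 controls) and -0.89 ± 0.160 (SD, n = 5 mutants; adjusted exact p = 0.0278). Nhp2 to Dkc1, both of the box H/ACA core, went from 0.15 ± 0.175 to 1.23 ± 0.407 (adjusted exact p = 0.0317). Ubtf to Polr1a, an activator and the largest subunit of RNA polymerase I, went from 2.02 ± 0.145 to 1.45 ± 0.239 (adjusted exact p = 0.0317), and the groups were apart for these 3 ratios. Fbl to Nop56 (difference -0.46) and Npm1 to Ncl (difference 0.53) passed with overlapping groups (adjusted exact p = 0.0494 for each). Bop1 to Pes1 and Wdr12 to Pes1, the PeBoW complex of large subunit maturation, differed by -0.12 and -0.12 (adjusted exact p = 0.394 and 0.812). The Gar1 to Dkc1, Polr1b to Polr1a and Rrp1b to Rrp1 ratios did not pass either (adjusted exact p = 0.921, 0.812 and 0.156).

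**Figure D3:**
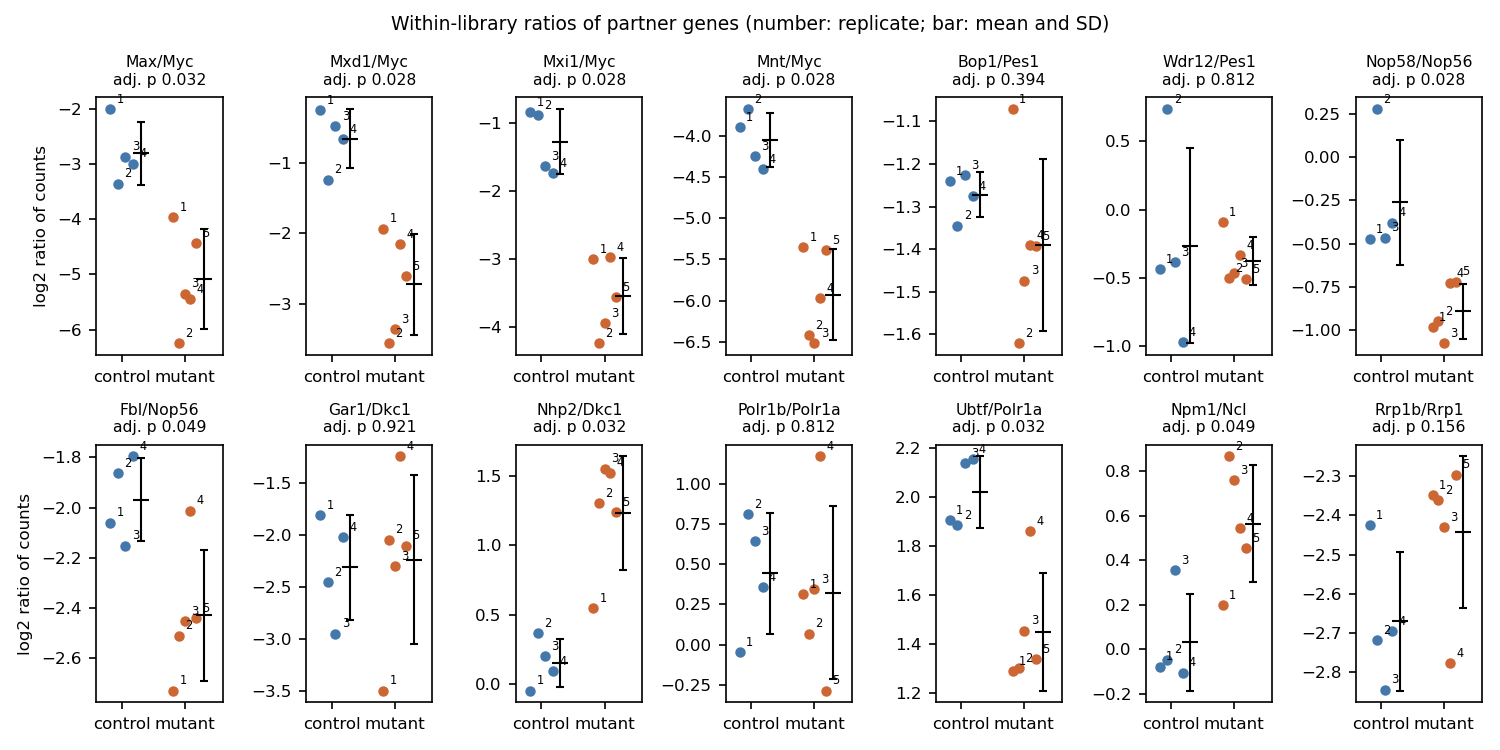
Log2 ratio of counts (y axis, a separate scale for each pair) for 14 partner pairs in 4 control and 5 mutant libraries (points, numbered by replicate), with mean and SD. The 4 ratios to Myc, Nop58/Nop56 and Ubtf/Polr1a lie lower in every mutant than in any control, and Nhp2/Dkc1 lies higher.

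Of 5 RNA polymerase I genes 4 rose and 0 fell, with a median log2 fold change of 0.69. The background for this and the role groups below was 20.6% of all genes tested higher and 11.8% lower, with a median of 0.04. Polr1e, a subunit of the part that starts and elongates transcription, was at 9.71, 5.85, 11.8 and 10.5 CPM in controls 1 to 4 and at 23.1, 21.2, 23.5, 21.2 and 28.1 in mutants 1 to 5. The mutants were close together and about equally high, also in mutants 2 and 3. Its log2 fold change was 1.30 (SE 0.21, edgeR adjusted p = 0.00342), 1.28 without mutants 2 and 3 (0.0131) and 1.38 with the endocrine level as a covariate (0.0347). Polr1b, the second largest subunit, was at 12.9, 16.2, 16.5 and 14.2 CPM in controls and at 22.8, 28.7, 27.8, 21.8 and 19.5 in mutants, a log2 fold change of 0.69 (edgeR adjusted p = 0.0135; lost without mutant 3, at 0.0526). Polr1a was at 13.3, 9.22, 10.5 and 11.1 CPM in controls and at 18.3, 27.4, 21.8, 9.66 and 23.8 in mutants. Mutant 4 fell among the controls there. The log2 fold change of Polr1a was 0.87 (edgeR adjusted p = 0.0382), and the call was lost without any of controls 1 to 4 or mutants 2, 3 or 5 (highest 0.118). Polr1c, which polymerase III also uses, rose by 0.57 (edgeR adjusted p = 0.0465), lost without 7 of the 9 libraries, that is all but control 2 and mutant 1 (highest 0.126). Ubtf, which opens ribosomal DNA for transcription, was at 34.2 to 49.9 CPM in controls and 35.3 to 67.7 in mutants (log2 fold change 0.25, edgeR adjusted p = 0.368).

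In the box C/D particle, which methylates ribosomal RNA, 3 of 4 genes rose and 0 fell. Nop56, a core scaffold, was at 135, 113, 161 and 131 CPM in controls and at 309, 353, 346, 165 and 262 in mutants. Mutant 4 was only just above control 3, and the other mutants were well clear of the controls. The log2 fold change of Nop56 was 1.09 (SE 0.23, edgeR adjusted p = 0.00812), and 0.81 without mutants 2 and 3 (0.0434). Rrp9, which binds the U3 RNA, was at 19.4, 11.6, 22.7 and 19.6 CPM in controls and at 30.5, 39.8, 32.9, 25.6 and 41.6 in mutants, apart from the controls, with a log2 fold change of 0.89 (edgeR adjusted p = 0.0148), and 0.77 without mutants 2 and 3, where it did not pass (0.0726). Fbl, fibrillarin, the methyltransferase itself, had 34.3 ± 3.13 CPM (SD, n = 4) in controls against 52.1 ± 9.88 CPM (SD, n = 5), a log2 fold change of 0.60 (edgeR adjusted p = 0.0205), not kept when control 1 or 2 or mutant 2 or 3 was left out (highest 0.0839). Nop58 did not pass (log2 fold change 0.44, edgeR adjusted p = 0.0993).

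Nhp2 had the clearest change of the box H/ACA particle, which makes pseudouridine and also holds telomerase RNA. Nhp2 (chromosome 11, positions 51619735 to 51623714 of GRCm38) was at 33.1, 55.3, 46.1 and 34.0 CPM in controls 1 to 4 and at 105, 153, 167, 137 and 123 in mutants 1 to 5. The lowest mutant was well above the highest control, and mutant 4 was not low. Its log2 fold change was 1.70 (SE 0.21, edgeR adjusted p = 0.00155), 1.48 without mutants 2 and 3 (0.00363) and 1.43 with the endocrine level as a covariate (0.0234). Dkc1, the pseudouridine synthase dyskerin, was at 34.2, 42.9, 40.2 and 31.9 CPM in controls and at 71.7, 61.9, 56.9, 47.5 and 51.9 in mutants. The groups were apart, with a log2 fold change of 0.64 (edgeR adjusted p = 0.0156; lost without control 1, at 0.0514). Gar1 ran from 5.15 to 9.71 CPM in controls and from 6.30 to 20.0 in mutants, with mutant 1 low and mutant 4 highest (edgeR adjusted p = 0.0909). Nop10, the smallest subunit, was at 57.1, 83.3, 65.7 and 52.8 CPM in controls and 49.6, 63.8, 69.6, 68.0 and 59.5 in mutants (log2 fold change -0.06, edgeR adjusted p = 0.803).

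Of 5 general nucleolar genes 3 rose and 0 fell. Npm1, nucleophosmin, an abundant nucleolar chaperone with processed pseudogenes that may share its reads, was at 280, 369, 400 and 291 CPM in controls and at 606, 974, 877, 588 and 690 in mutants. All mutants were clear of the controls, and mutants 2 and 3 were highest, as for Myc. The log2 fold change of Npm1 was 1.16 (SE 0.21, edgeR adjusted p = 0.00478), and 0.85 without mutants 2 and 3 (0.0144). Ddx21, an RNA helicase of ribosomal RNA transcription and processing, was at 43.7, 55.9, 52.1 and 52.0 CPM in controls and at 94.9, 106, 96.8, 85.9 and 93.4 in mutants. Its values varied little within each group, and the log2 fold change of 0.90 (SE 0.12, edgeR adjusted p = 0.00224) was 0.79 without mutants 2 and 3 (0.0103). Ncl, nucleolin, was at 295, 381, 312 and 313 CPM in controls and at 528, 534, 517, 403 and 504 in mutants, where mutant 4 stood below the rest and next to control 2. The log2 fold change of Ncl was 0.61 (edgeR adjusted p = 0.0133), and 0.51 without mutants 2 and 3, where it did not pass (0.0665). Nolc1 and Gnl3, a chaperone of nucleolar particles and the GTPase nucleostemin, did not pass, at log2 fold changes of 0.18 and 0.37 (edgeR adjusted p = 0.440 and 0.322). Without control 2 and mutant 4, Gnl3 was at 0.72 and passed (edgeR adjusted p = 0.0167). Per kilobase, Npm1 had the highest mean level of the 45 genes in both groups, at 126 CPM in controls and 280 in mutants.

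Factors of the small subunit rose in 6 of 8 cases and fell in 0, with a median log2 fold change of 0.76. Ltv1, an export and assembly factor of the late small subunit, was at 32.5, 29.0, 43.2 and 34.1 CPM in controls and at 62.2, 60.3, 65.2, 68.0 and 70.8 in mutants. Mutants 2 and 3 were no higher than the rest, and the groups were apart. The log2 fold change of Ltv1 was 0.91 (SE 0.14, edgeR adjusted p = 0.00298), and 0.96 with the endocrine level as a covariate (0.0352). Bysl, bystin, was at 36.4, 28.4, 31.7 and 33.3 CPM in controls and at 49.0, 60.9, 53.9, 49.6 and 52.7 in mutants (log2 fold change 0.71, edgeR adjusted p = 0.00464). Its exons share 361 bases with Ccnd3 on the other strand. The sources used here do not say if reads were counted by strand. Noc4l, a nucleolar complex protein, was at 20.4, 20.0, 34.5 and 28.1 CPM in controls and at 46.1, 54.5, 56.0, 49.7 and 54.1 in mutants (log2 fold change 1.01, edgeR adjusted p = 0.00475), again with the groups apart. Nop14 rose by 0.80 (edgeR adjusted p = 0.00860; 0.55 and 0.0550 without mutants 2 and 3), Rrp12 by 0.85 (0.0400) and Wdr43 by 0.70 (0.0283). Rrp12 was lost without 6 libraries (controls 1 to 3 and mutants 2, 3 and 5, highest edgeR adjusted p = 0.130), as was Wdr43 (controls 1, 2 and 4 and mutants 2, 3 and 5, highest 0.0880). Utp20 was at 10.4 to 14.9 CPM in controls and 8.49 to 21.7 in mutants (edgeR adjusted p = 0.288). Tsr1, a GTPase-like factor whose exons share 1240 bases with Srr on the other strand, had a log2 fold change of 0.06 (edgeR adjusted p = 0.771), which turned to -0.04 under RLE scaling.

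In the large subunit group 9 of 13 genes rose and 0 fell, with a median log2 fold change of 0.60. Wdr74 was at 42.7, 46.1, 60.2 and 44.1 CPM in controls and at 76.6, 105, 114, 70.2 and 81.6 in mutants (log2 fold change 0.89, edgeR adjusted p = 0.00810). Rrs1, which helps to place the 5S RNA, was at 35.4, 25.3, 40.2 and 37.8 CPM in controls and at 58.6, 77.1, 70.5, 42.0 and 88.2 in mutants (log2 fold change 0.96, edgeR adjusted p = 0.0133), and its difference was 0.80 without mutants 2 and 3, where it did not pass (0.0658). Both were apart, Rrs1 narrowly, through mutant 4. Pes1, pescadillo, was at 51.1, 44.3, 59.8 and 62.6 CPM in controls and at 76.4, 103, 104, 79.9 and 79.5 in mutants (log2 fold change 0.70, edgeR adjusted p = 0.0117; lost without mutant 3, at 0.0519). Its partner Bop1 rose by 0.57 (edgeR adjusted p = 0.0205; it did not hold when control 1 or 2 or mutant 2 or 3 was left out, highest 0.0933), while the third member, Wdr12, was at 32.0 to 73.9 CPM in controls and 55.9 to 75.7 in mutants, where control 2 was high (edgeR adjusted p = 0.110). Nop16 had the largest change of the group, with 37.3 ± 17.1 CPM (SD, n = 4) against 75.7 ± 18.7 CPM (SD, n = 5), a log2 fold change of 1.02 (edgeR adjusted p = 0.0277), which leaving out control 1, 3 or 4 or mutant 3 ended (highest 0.0800). Its values of 25.2, 61.8, 36.5 and 25.8 CPM in controls and 58.1, 97.3, 93.6, 70.4 and 59.0 in mutants overlapped through control 2.

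Nop2, an RNA methyltransferase whose promoter is printed above, rose by 0.96 on the log2 scale (edgeR adjusted p = 0.0155; it was not called when control 2 or mutant 3 was left out, highest 0.0553). Noc3l, Ebna1bp2 and Noc2l rose by 0.92, 0.60 and 0.54 (edgeR adjusted p = 0.0378, 0.0341 and 0.0306), and each was lost without 6 libraries (highest 0.0982, 0.102 and 0.0858). For all 3 these included controls 1, 3 and 4 and mutants 2 and 3, with mutant 5 for Noc3l and Noc2l and mutant 4 for Ebna1bp2. The exons of Noc2l share 598 bases with Samd11 on the other strand. Rrp1, which is needed for early large subunit steps, was at 153, 143, 140 and 167 CPM in controls and at 140, 141, 143, 147 and 148 in mutants, with a log2 fold change of -0.07 (edgeR adjusted p = 0.654). Its paralog Rrp1b, at 19.4 to 28.4 CPM in controls and 21.4 to 30.1 in mutants, and Nip7, at 45.1 to 70.4 and 48.1 to 72.0, did not pass either (edgeR adjusted p = 0.455 and 0.395).

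Levels also differed between the mutant libraries. Averaged over the 39 ribosome biogenesis genes, log2 CPM lay above the control mean by 0.56 in mutant 1, 0.88 in mutant 2, 0.85 in mutant 3, 0.36 in mutant 4 and 0.68 in mutant 5, and controls 1 to 4 lay between -0.06 and 0.08 around it. The mean over all genes tested was -0.27 in mutant 2 and between -0.05 and 0.06 in the other mutants. The median over all genes tested was 0.03 in mutant 2 and between 0.04 and 0.07 in the other mutants. Mutant 4 was the lowest mutant library for 26 of the 44 genes tested. Its acinar marker level, a mean log2 CPM of 11.28, was the highest of the 9 libraries. Mutants 2 and 3 were close to it, at 11.17 and 11.19, and mutants 1 and 5 were both at 10.47. Control 2 was the lowest control for 19 of the 44 genes and the highest for 17.

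**Figure D4:**
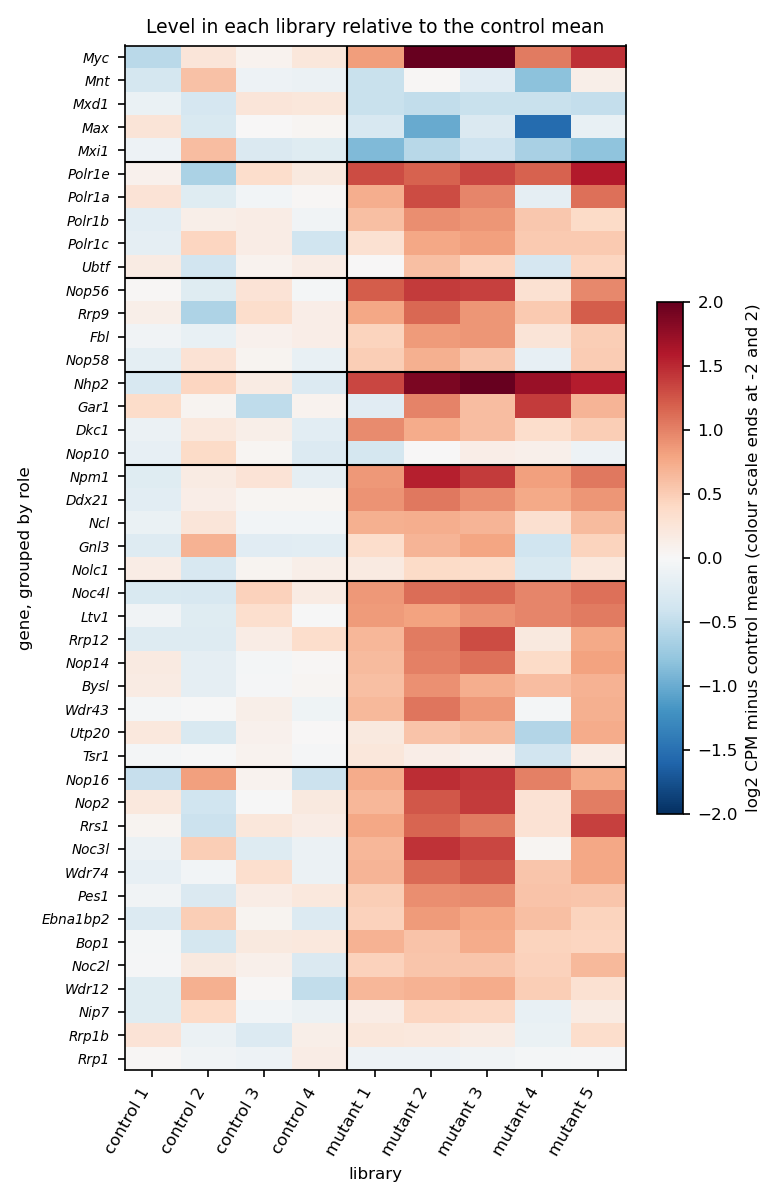
Log2 CPM minus the mean of the controls (colour, with the scale ending at -2 and 2) for the 44 genes tested (rows, grouped by role) in 9 libraries (columns). Mutants 2 and 3 are the reddest columns, mutant 4 the palest of the mutants, and Max, Mxd1 and Mxi1 are blue in the mutants.

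The rest of the ribosome biogenesis pathway was read from a list chosen by function, with earlier results of these data known. Of its 119 further genes with a row, 52 were higher and 1 lower (edgeR adjusted p under 0.05), against 20.6% and 11.8% of all genes. The median log2 fold change of the 119 was 0.46, and that of all genes 0.04. The count higher was 31 without control 1, 33 without mutant 2, 32 without mutant 3 and 18 without mutants 2 and 3, and 1 with the endocrine level as a covariate (31 higher at an unadjusted p under 0.05). Over all genes the same fits called 1678, 1863, 1579, 1355 and 445 higher, in that order, with 12282 to 12634 genes tested. Exosc5, a ring subunit of the RNA exosome that trims ribosomal RNA, was at 16.7, 15.4, 20.5 and 18.7 CPM in controls and at 34.1, 50.1, 53.4, 40.4 and 38.0 in mutants (log2 fold change 1.28, edgeR adjusted p = 0.00214). It was the gene that passed with the endocrine covariate (edgeR adjusted p = 0.0352). Rrp15 and Rrp8, factors of the large subunit and of ribosomal DNA silencing, had log2 fold changes of 1.01 and 0.99 (edgeR adjusted p = 0.00292 and 0.00337), and the 3 genes were apart between groups. The gene that fell, Gnl3l, a paralog of Gnl3, had a log2 fold change of -1.49 (edgeR adjusted p = 0.0173), and -1.29 without mutants 2 and 3, where it did not pass (0.0516).

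**Figure D5:**
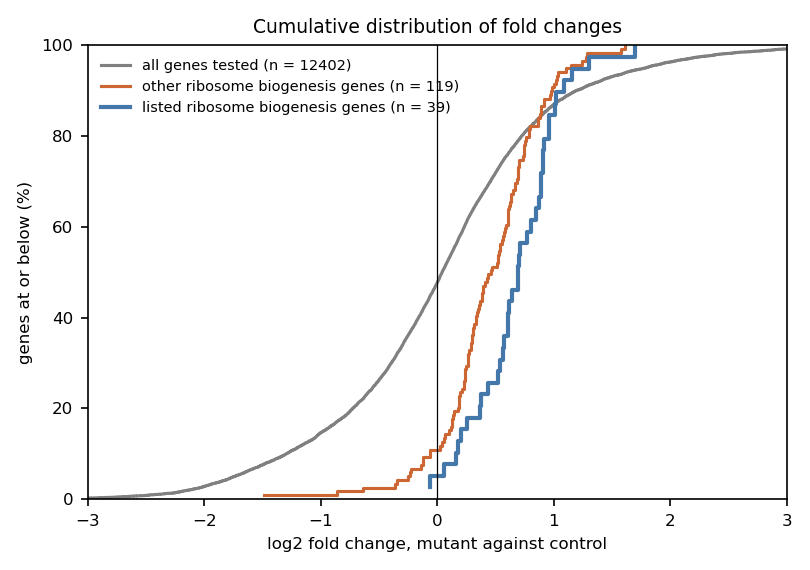
Percent of genes (y axis) at or below a log2 fold change of mutant against control (x axis, drawn from -3 to 3) for all 12402 genes tested, 119 other ribosome biogenesis genes and the 39 listed ones. Both ribosome biogenesis curves lie right of the curve of all genes at its middle, with medians of 0.46 and 0.70 against 0.04.

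Further lists bear on MYC. Of 6 other genes of the MAX and MLX network edgeR called 0 in either direction, with 1 at an unadjusted p under 0.05. DESeq2 called 1 lower, and limma-voom 1 higher and 1 lower. Mlxipl, the glucose-responsive factor ChREBP, was at 81.9, 63.8, 36.3 and 72.4 CPM in controls and at 23.6, 0.404, 5.31, 18.3 and 29.3 in mutants, all below the controls. The difference of -2.04 on the log2 scale did not pass (edgeR adjusted p = 0.0589), and without mutants 2 and 3 it was -1.48 and passed (0.0121). Mxd4 and Mxd3, weakly expressed MAX partners, had log2 fold changes of 0.93 and 0.71 (edgeR adjusted p = 0.174 and 0.207). Of 21 textbook MYC targets outside the nucleolus 8 were higher and 0 lower in edgeR (2 lower at an unadjusted p under 0.05, and 2 lower in DESeq2, limma-voom and edgeR with RLE scaling), with a median log2 fold change of 0.39. Of all genes tested 20.6% were higher and 11.8% lower in edgeR, with a median of 0.04. The count of these targets higher was 4 without control 1, without mutant 3 or without mutants 2 and 3, and 0 with the endocrine level as a covariate (7 at an unadjusted p under 0.05). Over all genes those fits called 1678, 1579, 1355 and 445 higher, in that order. The purine synthesis gene Gart, the prohibitin gene Phb2 and the serine hydroxymethyltransferase gene Shmt1 rose by 1.21, 1.01 and 2.23 (edgeR adjusted p = 0.00301, 0.00383 and 0.00464). Odc1, ornithine decarboxylase, chosen after its value was seen, had a log2 fold change of -1.27 (edgeR adjusted p = 0.0608).

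The 5 tested genes whose log2 CPM followed Myc most closely over the 9 libraries were Cpt1a, Gsta4, Utp23, Rps9 and Uhrf1, with Pearson correlations of 0.99, 0.99, 0.99, 0.99 and 0.98. These values describe libraries that share a genotype difference and the high levels of mutants 2 and 3. The log2 fold changes of these genes were 1.27, 2.37, 0.67, 1.12 and 3.19 (edgeR adjusted p = 0.00836, 0.00631, 0.0199, 0.0109 and 0.0168).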

How the data were processed

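Polyadenylated RNA of islets was sequenced in 9 libraries (small-scale column extraction and a low-input NEBNext kit, per the labels' protocols). The authors deposited unnormalized whole counts for each gene symbol. The submitters' processing notes name the build mm10, the aligners STAR and Bowtie2, the counter RSEM, and HOMER, DESeq2 and R 4.1.0, beside single-cell tools. Which of these made the counts, the annotation and the use of strand are not given in the sources used here.

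Groups came from sample titles. edgeR 4.0.16 (R 4.3.3) fitted all 12402 genes that passed filterByExpr, with TMM scaling, the quasi-likelihood test (two-sided) and Benjamini-Hochberg adjustment over all of them (threshold 0.05). The standard error is the unshrunken log2 fold change over the square root of F. log2 CPM used a prior count of 2, and ratios 0.5 on each count. Alternatives were other scaling, filters, covariates, a block, left-out libraries, DESeq2 1.42.0 and limma-voom (limma 3.58.1). The fit was tested on simulated data with 96 true 2-fold and 94 true 4-fold changes among 12177 genes. It recovered 18.8% of the 2-fold and 78.7% of the 4-fold changes, and 7.07% of its calls there were false. In the real data 4022 of 12402 genes were called, so that these shares need not hold for the real fit. No 2 libraries of a group were alike within sampling noise (chi-square per degree of freedom of at least 18.3). Reads carry no molecular identifiers.

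Members, lists and tests were chosen with earlier results of these data known. Of 122 other ribosome biogenesis symbols 3 had no row, and 9 of the 119 others matched by an older symbol. Named genes were all MYC network members with counts, and in each other class up to 3 of lowest p plus the largest change in each direction. Others are given by range or count. From the other lists the rule took up to 3 of lowest p (in each direction for ribosome biogenesis).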

Additional observations from a re-analysis of the deposited data

Results flagged for a closer look

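In 116 checks of whether 1 library stood far from the rest of its group (44 genes and 14 ratios in both groups), 7 did, where chance flags about 1 in 20. Mutant 4 was far below the other mutants for Nop58 (log2 CPM 6.64), Ncl (8.65) and Tsr1 (6.59), and for the Rrp1b to Rrp1 log2 ratio (-2.78). Control 2 was far above the other controls for Gnl3 (log2 CPM 6.66) and for the Nop58 to Nop56 log2 ratio (0.28). Control 3 was far above the other controls for the Npm1 to Ncl log2 ratio (0.36).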

How the results depend on the processing

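The 30 genes called kept their sign in every alternative except the acinar covariate, where 8 of them changed sign. Leaving out 1 library gave 15 to 29 listed genes higher and 0 to 2 lower, 31 to 54 other ribosome biogenesis genes higher and 1 lower, 0 to 1 higher and 0 to 1 lower in the MAX and MLX network, 4 to 9 MYC targets higher and 0 to 2 lower, and 0 to 9 ratios passing. Over all genes it gave 1579 to 2702 higher and 699 to 1865 lower. Without mutants 2 and 3 the counts were 10 and 1 (main 28 and 2), 18 and 0 (main 52 and 1), 1 lower in the network (main 0), 4 targets higher (main 8) and 0 ratios (main 9). Over all genes they were 1355 and 1229 (main 2560 and 1462). For ratios the smallest p rises with fewer libraries. Elsewhere the cause was not tested. Without control 2 and mutant 4 there were 1 listed gene lower, 1 network gene higher, 5 targets higher and 0 ratios. The endocrine covariate gave 4 and 0 listed genes, 1 and 0 other ribosome biogenesis genes and 0 targets, with 445 and 54 of all 12402 genes. The acinar covariate gave 0 in all of these and 0 of all 12402 genes. RLE scaling and DESeq2 each gave 2 other ribosome biogenesis genes lower, 1 network gene lower and 2 targets lower, and limma-voom 1 network gene higher, 1 lower and 2 targets lower. The replicate block gave 15 and 0 listed genes and 30 and 0 other ribosome biogenesis genes, with 1658 and 774 of all genes. Replicate numbers are not known to pair libraries. Deviations from group means of same-numbered libraries correlated at 0.05, -0.02, 0.18 and -0.05.

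Signs turned in uncalled genes and ratios, or in called genes with the acinar covariate. With that covariate log2 fold changes were -0.54 (Myc), 1.51 (Max), 0.54 (Mnt), -0.30 (Polr1b), -0.52 (Polr1c), -1.34 (Gar1), -0.010 (Npm1), -0.79 (Nop16), -0.15 (Pes1), -0.014 (Wdr12), 0.090 (Rrp1), -0.37 (Ebna1bp2), -0.20 (Wdr74), -0.058 (Exosc5), 0.39 (Gnl3l), 2.93 (Mlxipl), -3.98 (Mxd4) and -0.15 (Shmt1). The endocrine covariate gave -0.096 (Ubtf), -0.026 (Nolc1), -0.028 (Nip7) and 0.47 (Mlxipl). Without mutants 2 and 3 the values were -0.0048 (Ubtf), -0.020 (Nolc1), -0.030 (Tsr1) and -0.00085 (Nip7). Tsr1 was at -0.044 with RLE, -0.0077 without a filter, -0.040 in DESeq2 and between -0.034 and 0.10 with 1 library left out (-0.022 without mutant 2). Nop10 was at 0.058 in limma-voom and 0.0098 without mutant 1, and Nolc1 at -0.0095 without control 2. Ratio differences turned for Wdr12 to Pes1 (-0.35 to 0.22 with 1 library left out, positive without control 2, and 0.21 without control 2 and mutant 4), Polr1b to Polr1a (-0.33 to 0.032 with 1 library left out, 0.0034 without control 2) and Gar1 to Dkc1 (-0.18 without mutant 4 to 0.39 with 1 library left out, -0.14 without control 3, -0.23 without control 2 and mutant 4). Ratios and fold changes of Max and Mnt, and the fold change of Rrp12, rest on few counts. These were 16 to 67, 11 to 32 and 28 to 83 per library. Mycn, with 0 to 19 counts, was not tested.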
